A study of Mus musculus with 12 samples.

Results

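The genes described here mark the neurons of the upper layers of the mouse cerebral cortex. They are the 8 genes Cux1, Cux2, Pou3f2, Pou3f3, Rorb, Lmo4, Mdga1 and Rasgrf2, and they were taken by their symbols in the platform annotation. That annotation gives 25 of the 45101 probe sets on the array to 1 of these genes alone. A further probe set is shared between Pou3f3 and the transcript 2900092D14Rik. By gene, these are 8 of the 18193 genes that have a probe set of their own.

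The layers of the cortex are built from the inside out: deep-layer neurons are born before upper-layer neurons, which migrate past them towards the surface. The upper layers hold mainly neurons that send axons to other parts of the cortex, and layer 4 receives the main input from the thalamus. Cux1 and Cux2 encode homeodomain proteins of upper-layer neurons, Pou3f2 and Pou3f3 (Brn2 and Brn1) encode POU-domain factors needed for the birth and migration of these neurons, and Rorb encodes a nuclear receptor typical of layer 4. Lmo4 encodes a LIM-only cofactor, Mdga1 a cell-surface protein of the immunoglobulin family, and Rasgrf2 an exchange factor that activates Ras and Rac. Several of these genes are also active in progenitors or in cells outside the upper layers, so in tissue RNA they do not read upper-layer neurons alone.

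The study compared mice homozygous for a gene trap in Qkf, now named Kat6b, with wild types, all of strain 129/Sv. Kat6b encodes a histone acetyltransferase. RNA was measured from the adult dorsal cerebral cortex of 3 wild-type and 3 Qkf gt/gt males, and from the dorsal telencephalon of 3 wild-type and 3 Qkf gt/gt embryos at stage E12.5, whose sex the labels do not give. The series describes the samples as pairs. Adult wild types 1, 2 and 3 were 155, 112 and 101 days old, and mutants 1, 2 and 3 were 155, 112 and 99 days old. Wild-type and mutant embryo 1 came from a cross of one set of parents, and the remaining 4 embryos from another. The adult arrays carry the numbers of different mice. For embryos the labels give only the parents and do not say whether an array holds 1 embryo or a pool. Where samples are not separate animals, p-values measure only the spread between these samples, which may be technical. E12.5 lies at the start of cortical neurogenesis, before most upper-layer neurons are born, so the embryonic arrays mainly read progenitors and early neurons.

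All values are log2 expression values as deposited. The lowest value on every array was 2.19, which marks no measurable signal above background in this scale. Array medians lay between 3.64 and 3.74. Differences were tested with limma over 11449 genes, each represented by its probe set of highest mean, and in a separate fit over 20292 probe sets. Both fits kept only probe sets over 4 on at least 3 arrays, and a gene was called where its Benjamini-Hochberg adjusted p was under 0.05. As a check of the labels, Kat6b read 11.28, 11.40 and 11.42 in wild-type embryos and 6.22, 7.24 and 7.72 in mutant embryos. In adults it read 9.68, 9.35 and 9.72 in wild types and 7.25, 7.17 and 6.92 in mutants. The difference was −4.31 in embryos (limma adjusted p = 0.000191) and −2.47 in adults (limma adjusted p = 0.017). Where this probe set lies relative to the trap was not analysed here. Markers of the labelled tissues were read as a description. Neurod6 and Tbr1, genes of cortical excitatory neurons, were at 10.03 or above on all 12 arrays. Not all genes of these neurons were: Slc17a7 read 3.85 to 4.83 in embryos and 10.34 to 11.71 in adults. Emx1 read 7.41 to 8.16 in embryos and 4.94 to 5.58 in adults. Dlx2, a ventral gene, read 3.20 to 9.04 in embryos. Pax6 and Eomes, genes of cortical progenitors, lay between 10.05 and 11.59 on the embryonic arrays and between 2.21 and 3.96 on the adult arrays.

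Promoters of 3 of the genes that rose between the stages are shown first: Rasgrf2, with the largest difference, and Rorb and Cux2, whose outer and inner starts differ in their CG content. The Lmo4 windows are not printed. RefSeq windows of assembly GRCm38.p6, from 250 bases before to 50 bases after a start, matched all 8 genes and gave 12 windows. The 250 bases before 5 of these starts follow, each on the minus strand, written 5′ to 3′ with every CG dinucleotide in capitals.

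Rasgrf2 (chr13:92131829-92132078): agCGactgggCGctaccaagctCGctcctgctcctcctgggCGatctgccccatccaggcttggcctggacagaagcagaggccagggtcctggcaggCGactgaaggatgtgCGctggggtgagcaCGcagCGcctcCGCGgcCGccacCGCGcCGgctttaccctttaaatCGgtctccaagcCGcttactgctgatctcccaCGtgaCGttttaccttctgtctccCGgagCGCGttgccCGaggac

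Rorb, outer start (chr19:19111197-19111446): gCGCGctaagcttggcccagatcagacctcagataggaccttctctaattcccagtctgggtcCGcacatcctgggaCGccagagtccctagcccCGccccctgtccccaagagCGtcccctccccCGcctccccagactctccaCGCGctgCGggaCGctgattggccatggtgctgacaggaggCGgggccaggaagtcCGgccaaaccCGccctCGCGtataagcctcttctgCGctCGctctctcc

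Rorb, inner start (chr19:19001118-19001367): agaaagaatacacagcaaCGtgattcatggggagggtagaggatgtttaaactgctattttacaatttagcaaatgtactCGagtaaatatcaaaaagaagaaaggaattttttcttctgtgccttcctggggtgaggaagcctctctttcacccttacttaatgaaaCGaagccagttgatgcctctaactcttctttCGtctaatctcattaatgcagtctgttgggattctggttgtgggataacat

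Cux2, outer start (chr5:122049852-122050101): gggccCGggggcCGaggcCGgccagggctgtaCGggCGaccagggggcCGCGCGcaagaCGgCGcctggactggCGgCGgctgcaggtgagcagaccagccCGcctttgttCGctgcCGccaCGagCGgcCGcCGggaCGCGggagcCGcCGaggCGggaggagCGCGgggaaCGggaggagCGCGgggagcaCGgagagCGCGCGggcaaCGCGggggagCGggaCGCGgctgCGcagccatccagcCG

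Cux2, inner start (chr5:122047826-122048075): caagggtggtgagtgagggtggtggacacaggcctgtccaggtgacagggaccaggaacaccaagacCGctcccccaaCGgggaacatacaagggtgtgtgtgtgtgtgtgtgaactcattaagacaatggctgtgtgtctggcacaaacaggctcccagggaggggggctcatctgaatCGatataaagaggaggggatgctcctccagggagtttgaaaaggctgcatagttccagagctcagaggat

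Of the 12 windows, 10 held more CG dinucleotides than the median of 7 over 32851 windows of the same length, and 11 had a higher GC content than the median of 52.7%. Cux2 and Rorb each have an outer start rich in CG and an inner start poor in it. The full windows held 48 and 4 CG dinucleotides for Cux2, at 80.3% and 56.7% GC, and 20 and 5 for Rorb, at 63.7% and 41.0% GC. The Rasgrf2 window held 28. The letters of 3 binding motifs were searched on both strands. The POU octamer ATGCAAAT was in 0 of the 12 windows and in 1.74% of all windows. The ROR half-site AGGTCA was in 0 of the 12 and in 16.3% of all windows. The CUX core ATCGAT, which reads the same on both strands, was in 1 of the 12, the inner window of Cux2, at position -72 from the start, and in 0.925% of all windows. These letters are a description of the windows and show no binding. With 1 match in all, no motif overlapped another.

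Between E12.5 and adulthood the 8 genes went separate ways, in wild types and mutants alike. Rasgrf2, Rorb, Lmo4 and Cux2 were higher in the adult cortex, by log2 differences of 8.25, 4.76, 2.72 and 1.96 in wild types. The Rasgrf2 probe set was over 4 on adult arrays only, so the filter fixed its direction and its call is no support. Pou3f3 and Cux1 were lower, by log2 differences of −1.90 and −1.17. Pou3f2 and Mdga1 were not called. In the mutants the same 6 genes were called in the same directions, at 8.22, 5.58, 2.62, 2.33, −1.72 and −0.71. The array labels carry one set mark for the adults and other marks for the embryos, so stage and array set cannot be told apart, and the dissected tissue differs too. The share of all genes called between the stages was 81.4% in wild types, 38.4% higher and 43% lower in adults, so 6 of 8 (4 higher and 2 lower) is close to the background. In mutants 81.7% of all genes were called. By probe set, 14 of the 20 that passed the filter were called in wild types, 8 higher and 6 lower, against 79.3% of all probe sets. Of these 20, 4 passed through adult arrays only, all called higher, and 1 (Mdga1) through embryonic arrays only. The median difference over the 8 genes was 1.06, and over all genes −0.08.

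By contrast, none of the 8 genes was called between mutants and wild types at either stage. In adults 0 of 8 genes and 0 of 20 probe sets were called, where 0.0524% of all genes (6 genes) and 0.0246% of all probe sets (5) were called. In embryos it was again 0 of 8 and 0 of 20, against 0.0349% of all genes (4 genes) and 0.0641% of all probe sets (13). At an unadjusted p under 0.05 there were 0 of 8 genes at each stage, against 4.54% of all genes in adults and 4.51% in embryos. By probe set there were 2 of 20 in adults, against 4.58% of all, and 0 of 20 in embryos, against 4.53%. The adjusted p of each gene was 1 in both comparisons. With so few calls in the whole data set, a share of 0 among 8 genes is what the background gives. Bulk RNA cannot separate fewer cells of a type from less RNA per cell, and this holds for each value below.

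**Figure D1:**
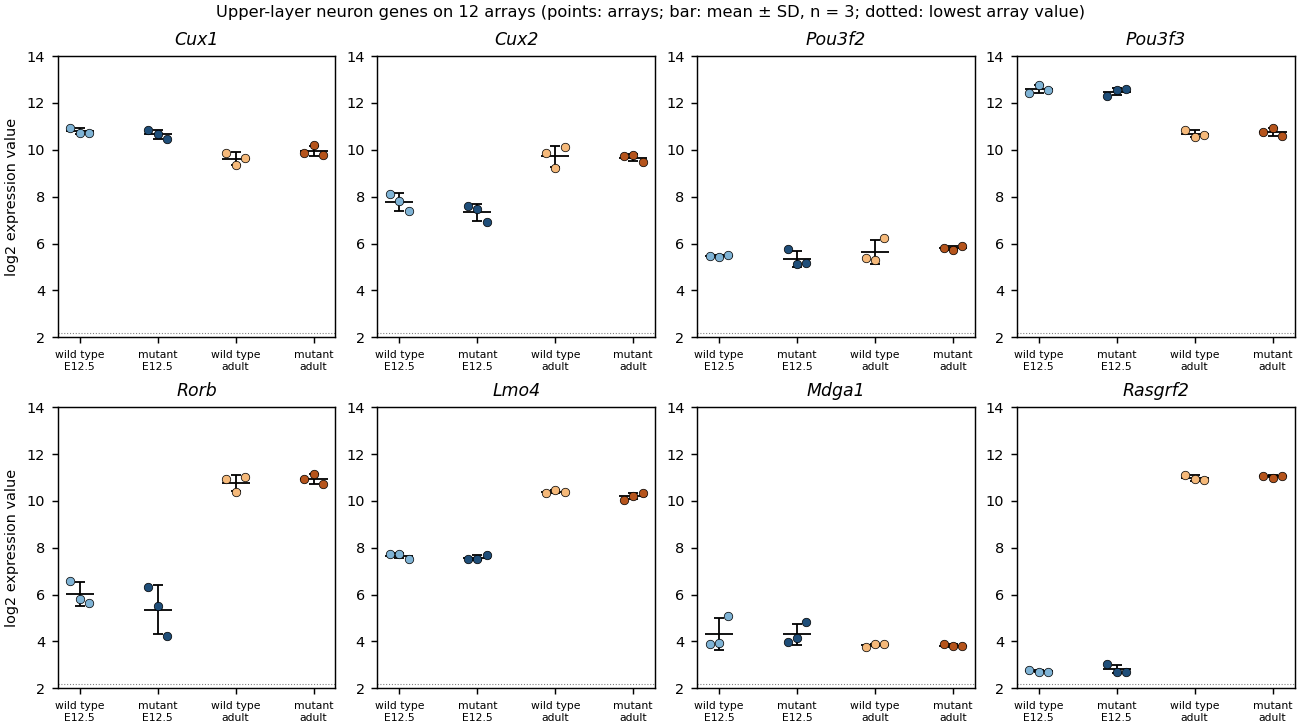
Log2 expression values of the main probe set of each of the 8 genes on the 12 arrays, grouped by genotype and stage, with the mean and SD of 3 arrays and the lowest array value (2.19) as a dotted line. Rasgrf2, Rorb, Lmo4 and Cux2 sit higher in both adult groups and Pou3f3 and Cux1 lower, while mutants and wild types of a stage sit side by side.

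Cux1 lies at chr5:136248135-136567590 (GRCm38.p6) and had 9 probe sets, of which 7 passed the filter. Its main probe set (1441956_s_at) read 10.93, 10.73 and 10.72 in wild-type embryos and 10.86, 10.67 and 10.46 in mutant embryos. The adult values were 9.87, 9.35 and 9.67 in wild types and 9.86, 10.21 and 9.79 in mutants. Every adult array was below every embryonic array, and the genotypes overlapped at each stage. Cux1 fell by 1.17 between the stages in wild types (SE 0.16, limma adjusted p = 3.87e-05) and by 0.71 in mutants (limma adjusted p = 0.00177). The mutant effect was 0.33 in adults, with a 95% interval from −0.03 to 0.69, and −0.13 in embryos, with an interval from −0.49 to 0.23. Within the age pairs the adult difference was −0.0049, 0.86 and 0.13, and without wild-type adult 2 the adult effect was 0.19. The test of the difference between those effects gave 0.46, at an unadjusted p of 0.0717 and a limma adjusted p of 0.908. Among the 7 probe sets that passed, the main one fell most with stage. The stage differences of the others ran from −0.87 to −0.18 in wild types and from −0.69 to −0.31 in mutants. Of these, 1424667_a_at and 1424668_a_at were called in neither genotype. In mutants 1425611_a_at and 1451435_at were not called either (limma adjusted p = 0.0772 and 0.054).

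Between genotypes, the other Cux1 probe sets gave the same picture in adults and a mixed picture in embryos. All 7 that passed had a positive adult effect, from 0.04 to 0.33, and none was called. They come from the same gene and the same arrays, so they are not independent. In 2 of them the adult genotypes did not overlap: 1425611_a_at read 6.23, 5.86 and 6.15 in wild types and 6.43, 6.36 and 6.41 in mutants, and 1451435_at read 8.67, 8.36 and 8.45 in wild types and 8.78, 8.67 and 8.76 in mutants. Both effects were near the size of the main one, at 0.32 and 0.24, with limma adjusted p = 1. In embryos the 7 effects ran from −0.16 (1434683_at) to 0.55 (1424668_a_at). The embryonic genotypes of 1434683_at did not overlap, with wild types at 10.05, 10.02 and 9.96 and mutants at 9.81, 9.88 and 9.86. Its mutant effect differed between the stages by 0.40, at an unadjusted p of 0.0336 and a limma adjusted p of 0.915. The other 2 probe sets, 1437686_x_at and 1425612_at, stayed under 2.76 on every array.

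Cux2 lies on the same chromosome, at chr5:121857962-122050415. Its main probe set (1447500_at) read 8.11, 7.82 and 7.38 in wild-type embryos and 7.61, 7.47 and 6.93 in mutant embryos. Adult wild types gave 9.86, 9.23 and 10.10, and adult mutants 9.75, 9.77 and 9.49. All adult arrays were above all embryonic arrays, and the rise was 1.96 in wild types (SE 0.26, limma adjusted p = 2.24e-05) and 2.33 in mutants (limma adjusted p = 4.97e-06). The mutant effect was −0.06 in adults (95% interval −0.62 to 0.50) and −0.43 in embryos (−1.0 to 0.13). On this probe set embryonic mutants were lower within both crosses, by 0.50 in the first (1 array a genotype) and by 0.40 in the second (2 a genotype). The effect was −0.23 without mutant embryo 3.

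The second Cux2 probe set (1450181_at) also rose with stage, by 1.60 in wild types (limma adjusted p = 1.96e-05) and by 2.12 in mutants (limma adjusted p = 1.7e-06). Its adult values were 7.21, 7.12 and 7.67 in wild types and 7.92, 8.06 and 7.46 in mutants. Adult mutants were 0.48 higher on average, at an unadjusted p of 0.0373 and a limma adjusted p of 1, whereas the main probe set gave −0.06. In embryos the effect on 1450181_at was −0.04, with −0.41 in the first cross and 0.14 in the second. The third (1447821_at) held 1 value, 5.26, to within 0.001 on 7 of the 12 arrays. A value repeated in this way on 3 or more arrays occurred in 10 of the 25 probe sets, and no order is read among such arrays.

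Pou3f3, at chr1:42695768-42700210, fell with stage. The probe set 1435197_at read 12.43, 12.76 and 12.57 in wild-type embryos and 12.29, 12.57 and 12.57 in mutant embryos. In adults it read 10.86, 10.57 and 10.62 in wild types and 10.75, 10.94 and 10.60 in mutants. The stages lay apart and the genotypes overlapped at both. Pou3f3 fell by 1.90 in wild types (SE 0.14, limma adjusted p = 1.13e-07) and fell by 1.72 in mutants (limma adjusted p = 2.78e-07). The mutant effect was 0.08 in adults (95% interval −0.22 to 0.38) and −0.11 in embryos (−0.41 to 0.19). These are the narrowest intervals among the transcription factors of the set. The probe set shared with 2900092D14Rik (1429857_at) had means of 9.88 and 9.83 in wild-type and mutant embryos and of 8.70 and 8.57 in adults. A further probe set (1422331_at) failed the filter, at 2.64 to 4.25 in embryos and 2.21 to 2.26 in adults.

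Pou3f2, at chr4:22482095-22488366, was low on every array and showed no call in the main fit. Its main probe set (1453478_at) read 5.48, 5.43 and 5.49 in wild-type embryos and 5.75, 5.14 and 5.16 in mutant embryos. The adult arrays gave 5.39, 5.28 and 6.22 in wild types and 5.81, 5.74 and 5.90 in mutants. The genotypes overlapped at each stage, as did the stages in wild types, with wild-type adult 3 the highest array. In mutants the stages overlapped by 1 embryonic array, mutant embryo 1. The stage difference was 0.16 in wild types (limma adjusted p = 0.525) and 0.46 in mutants (limma adjusted p = 0.0856). A second probe set (1450831_at) had adult arrays at 4.71 to 6.04 and embryonic arrays at 4.18 to 4.98. It rose by 0.89 in mutants (limma adjusted p = 0.0119), and its difference in wild types was 0.65 (limma adjusted p = 0.051). The mutant effect on the main probe set was 0.18 in adults (95% interval −0.33 to 0.69) and −0.12 in embryos (−0.63 to 0.40). The third probe set (1457734_at) failed the filter.

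Rorb, at chr19:18930609-19111196, had the widest spread among embryos and 3 probe sets that did not give 1 answer in adult mutants. Its main probe set (1455799_at) read 6.60, 5.80 and 5.64 in wild-type embryos and 6.32, 5.51 and 4.23 in mutant embryos. In adults it read 10.92, 10.37 and 11.03 in wild types and 10.95, 11.16 and 10.70 in mutants. The stages were far apart and the genotypes overlapped at each. The rise was 4.76 in wild types (SE 0.44, limma adjusted p = 1.15e-06) and 5.58 in mutants (limma adjusted p = 2.79e-07). The mutant effect was −0.66 in embryos, with a 95% interval from −1.63 to 0.32. It was −0.28 in the first cross and −0.85 in the second, and ranged from −1.14 without mutant embryo 1 to −0.09 without mutant embryo 3. In adults the effect was 0.17, with an interval from −0.81 to 1.14. The adult effect less the embryonic effect was 0.82 (unadjusted p = 0.215, limma adjusted p = 0.936).

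The second Rorb probe set (1439862_at) followed the first, with adult wild types at 7.42, 6.83 and 7.70 and mutants at 7.54, 7.89 and 7.35. The third (1425162_at) did not. It read 6.91, 6.22 and 6.61 in adult wild types and 4.40, 5.80 and 6.13 in adult mutants, so every mutant was below every wild type. The difference was −1.14 (SE 0.36), at an unadjusted p of 0.00857 and a limma adjusted p of 0.924, against 0.17 and 0.28 for the other probe sets. Within the age pairs the difference was −2.51, −0.42 and −0.49. The lowest array, mutant 1, was also the adult array with the largest gap between the 3′ and 5′ probe sets of the actin control, 1.91 on the log2 scale, against 1.47 and 1.09 in mutants 2 and 3 and 1.06 to 1.13 in the wild types. Its Gapdh gap was 0.257, against −0.154 to −0.059 on the other adult arrays. The part of RNA quality in this difference was not tested. In embryos the same probe set read 2.70, 2.60 and 2.66 in wild types and 2.59, 2.43 and 2.32 in mutants, close to the lowest array value.

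**Figure D2:**
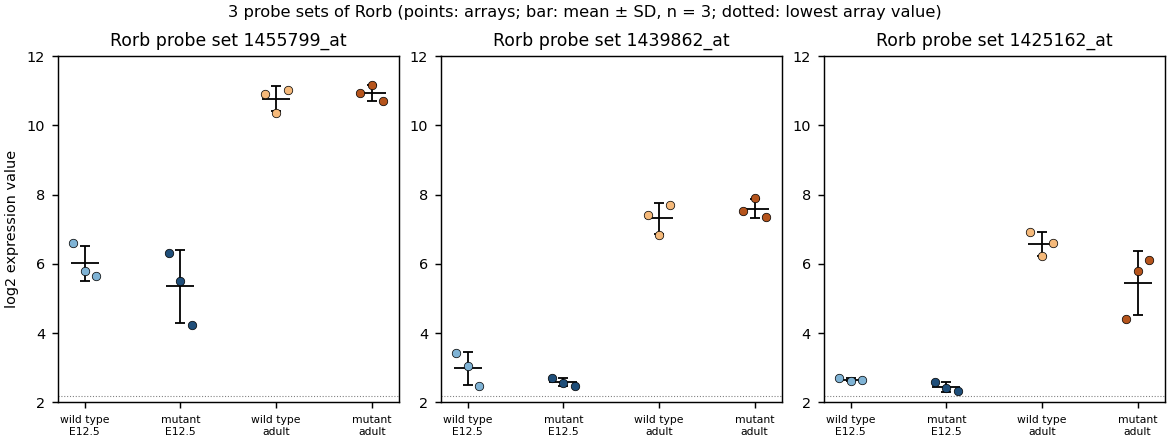
Log2 expression values of the 3 Rorb probe sets on the 12 arrays by group, with mean and SD of 3 arrays and the lowest array value (2.19) as a dotted line. In the first 2 panels adult mutants overlap adult wild types, while in the panel of 1425162_at all adult mutants (4.40 to 6.13) lie below the wild types (6.22 to 6.91).

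Counts of groups that do not overlap put this in proportion. Of the 20 probe sets, 4 had adult genotypes apart (lower in mutants for Rorb 1425162_at and Lmo4, higher for the named pair of Cux1), against 9.65% of all probe sets. In embryos 2 of 20 were apart, Cux1 1434683_at and Rorb 1425162_at, both lower in mutants, against 7.65% of all probe sets. By gene it was 1 of 8 in adults (Lmo4), against 9.39% of all genes, and 0 of 8 in embryos, against 8.29%.

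Lmo4, at chr3:144188530-144205255, had 1 probe set (1420981_a_at). It read 7.73, 7.74 and 7.54 in wild-type embryos and 7.52, 7.51 and 7.71 in mutant embryos, which overlapped. In adults it read 10.35, 10.45 and 10.37 in wild types and 10.05, 10.23 and 10.32 in mutants, so all mutants were below all wild types by a small margin. The adult effect was −0.19 (95% interval −0.42 to 0.04, unadjusted p = 0.101, limma adjusted p = 1), and the embryonic effect −0.09 (−0.32 to 0.15). Within age pairs the adult effect was −0.29, −0.23 and −0.05. The lowest adult array, mutant 1, was again the one with the largest actin gap, 1.91. The part of RNA quality in the Lmo4 difference was not tested. The rise with stage was 2.72 in wild types (SE 0.11, limma adjusted p = 5.65e-10) and 2.62 in mutants (limma adjusted p = 7.78e-10).

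Mdga1, at chr17:29827956-29888583, was close to background. Its probe set (1432062_at) read 3.89, 3.94 and 5.10 in wild-type embryos, 3.96, 4.16 and 4.82 in mutant embryos, 3.78, 3.89 and 3.89 in adult wild types and 3.89, 3.80 and 3.80 in adult mutants. It was over 4 on embryonic arrays only, and 4 arrays held the value 3.89 to within 0.001. Within each genotype all adult arrays were at or below all embryonic arrays, with a difference of −0.46 in wild types (limma adjusted p = 0.174) and −0.49 in mutants (limma adjusted p = 0.149). The mutant effects were −0.02 in adults (95% interval −0.68 to 0.63) and 0.01 in embryos (−0.65 to 0.66), intervals wide for so low a signal.

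Rasgrf2, at chr13:91880407-92131828, had the largest stage difference of the set. Its main probe set (1440849_at) read 2.79, 2.70 and 2.72 in wild-type embryos and 3.03, 2.72 and 2.72 in mutant embryos. In adults it read 11.11, 10.94 and 10.89 in wild types and 11.06, 10.997 and 11.08 in mutants. The rise was 8.25 in wild types (SE 0.11, limma adjusted p = 1.04e-13) and 8.22 in mutants (limma adjusted p = 1.07e-13). The embryonic values lie close to the lowest array value, and 3 of them are equal to within 0.001, so the size of the rise, its SE and its p rest on the background estimate. Both Rasgrf2 probe sets that passed the filter were over 4 on adult arrays only, as were Rorb 1439862_at and 1425162_at, so these 4 of the 20 probe sets had to differ between the stages to be tested. A second probe set (1440918_at) lay at 3.26 to 3.88 in embryos and 7.20 to 7.76 in adults, a rise of 3.81 in wild types (limma adjusted p = 4e-09) and 4.01 in mutants (limma adjusted p = 2.55e-09). The third (1421621_at) stayed near the lowest value and failed the filter. The mutant effect was 0.06 in adults (95% interval −0.17 to 0.30) and 0.09 in embryos (−0.15 to 0.33).

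**Figure D3:**
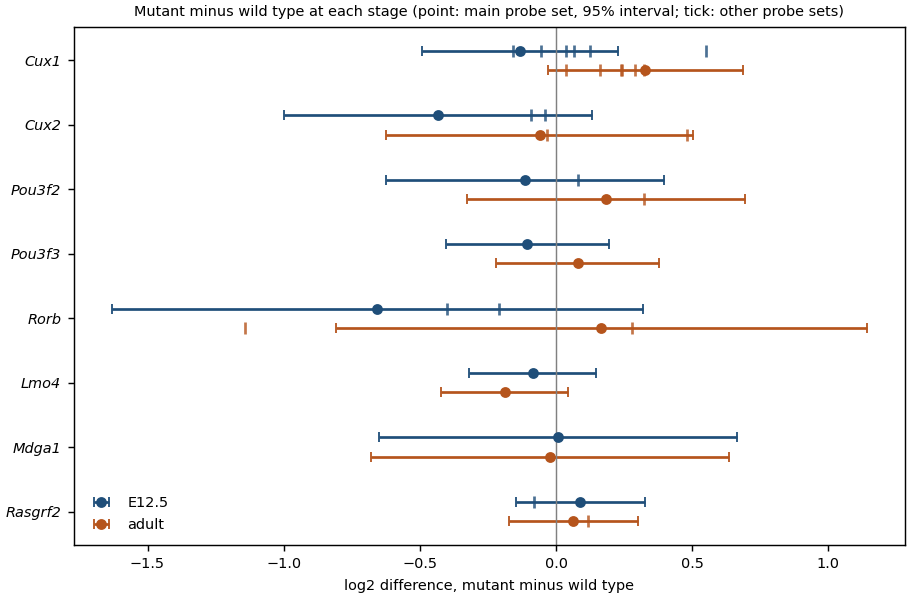
Log2 difference, mutant minus wild type, of each gene at E12.5 and in adults, with points for the main probe set, bars for its 95% interval and ticks for the other probe sets that passed the filter. The interval of every main probe set crosses 0 at both stages, and the tick at −1.14 is the Rorb probe set 1425162_at.

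No gene of the set passed the test of a difference between the stages in the mutant effect, where the share of all genes called was 0% (0 of 11449). The estimates ran from −0.10 (Lmo4) to 0.82 (Rorb) and were positive for 5 of 8, with limma adjusted p from 0.908 to 0.994. In embryos 6 of 8 effects were negative (median −0.11, all genes −0.01), and in adults 5 of 8 were positive (median 0.07, all genes 0.03).

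The embryos of the first cross stood apart from the rest in the mean level of 13 of 18 marker lists, those of the cortex among them. Intermediate progenitor genes were at 9.27 to 9.29 against 9.67 to 9.92, radial glia genes at 10.35 to 10.36 against 10.45 to 10.61, deep-layer genes at 7.51 to 7.70 against 7.82 to 7.95 and erythroid genes at 11.93 to 12.13 against 10.72 to 11.34. The widest gap was in the ventral telencephalon. Among the 10 listed genes of the ventral telencephalon 5 passed the filter, and their mean level was 7.93 in wild-type embryo 1 and 7.33 in mutant embryo 1, against 3.99 to 5.43 in the other 4. Dlx2, an early gene of ventral progenitors, read 9.04 and 8.43 in the first cross and 3.20 to 5.80 in the second. Nkx2-1, which defines the medial ganglionic eminence, stood at 2.19 on every embryonic array, and Gsx2 at 2.19 to 4.03. Neurod6, of newborn dorsal neurons, was lower in the first cross, at 10.20 and 10.60 against 11.92 to 12.58.

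Of the 8 genes 4 lay apart between the crosses on their main probe set, against 27.8% of all genes, and the crosses overlapped for Cux2, Lmo4, Mdga1 and Pou3f2. Rorb 1455799_at was 6.32 to 6.60 in the first cross and 4.23 to 5.80 in the second, Cux1 10.86 to 10.93 against 10.46 to 10.73 and Rasgrf2 2.79 to 3.03 against 2.70 to 2.72, while Pou3f3 was lower, at 12.29 to 12.43 against 12.57 to 12.76. On the other 2 Rorb probe sets the crosses overlapped. Each cross holds both genotypes, and the within-cross values of Rorb and Cux2 given above compare embryos of the same parents. The ventral list also differed between the genotypes of the first cross. In the second cross the mean of this list was 5.43 and 3.99 in wild-type embryos 2 and 3, and 4.39 and 4.23 in mutant embryos 2 and 3. The part of the ventral list in the values of the 8 genes was not tested. Mutant embryo 3 was the lowest array on the main probe sets of Rorb and Cux2, but not on Cux2 1450181_at. It had the highest mean of the 8 measured genes (of 12) of the cortical hem and choroid plexus, 7.83 against 7.09 to 7.64. Its part in those low values was not tested.

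In adults, Ttr, the main transcript of the choroid plexus, read 15.16 in mutant 3 and 6.78 to 9.18 on the other 5 arrays. Without that array the adult effect was 0.41 for Cux1, 0.03 for Cux2, 0.28 for Rorb and −0.25 for Lmo4, none called. The 7 measured genes of excitatory neurons had a mean of 9.33 to 9.61 in wild types and 9.57 to 9.62 in mutants. All 9 measured oligodendrocyte genes were lower on average in adult mutants (0 called, median −0.34), with list means of 9.46 to 9.87 in wild types and 9.30 to 9.53 in mutants. The part of this in the Lmo4 difference was not tested.

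Relatives of the 8 genes within their families were called between the stages and not between genotypes, as were most genes in these data. Of 9 listed, 8 were measured. In wild types 5 were higher in adults: Rasgrf1, the sister of Rasgrf2, by 9.72 from embryonic values at the lowest array value (2.20 to 2.26), Rora, the sister of Rorb, by 5.58, Mdga2 by 5.39, Lmo3 by 3.01 and Pou3f1 by 1.79. The other 3 were lower: Lmo1 by a difference of −2.59, Pou3f4 of −1.42 and Lmo2 of −1.05. Of all genes, 81.4% were called between the stages in wild types, 38.4% higher and 43% lower in adults. Rasgrf1, Mdga2 and Lmo3 were under 4 on every embryonic array and passed the filter through adult arrays only, so it fixed their direction. The shared direction of Rasgrf1 and Rasgrf2 is therefore no support. Mdga2 rose where Mdga1 was not called, but Mdga1 passed through embryonic arrays only, so no contrast is read from this pair. Rora shared the direction of Rorb, and the LIM-only and POU groups were split. In mutants against wild types 0 of 8 were called, where 0.0524% of all genes were called in adults and 0.0349% in embryos. The same shares of all genes stand beside the lists below. The lowest unadjusted p belonged to Lmo3 (0.28) and Lmo1 (0.33) in adults and to Pou3f1 (−0.40) and Lmo3 (−0.19) in embryos, each with limma adjusted p = 1.

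**Figure D4:**
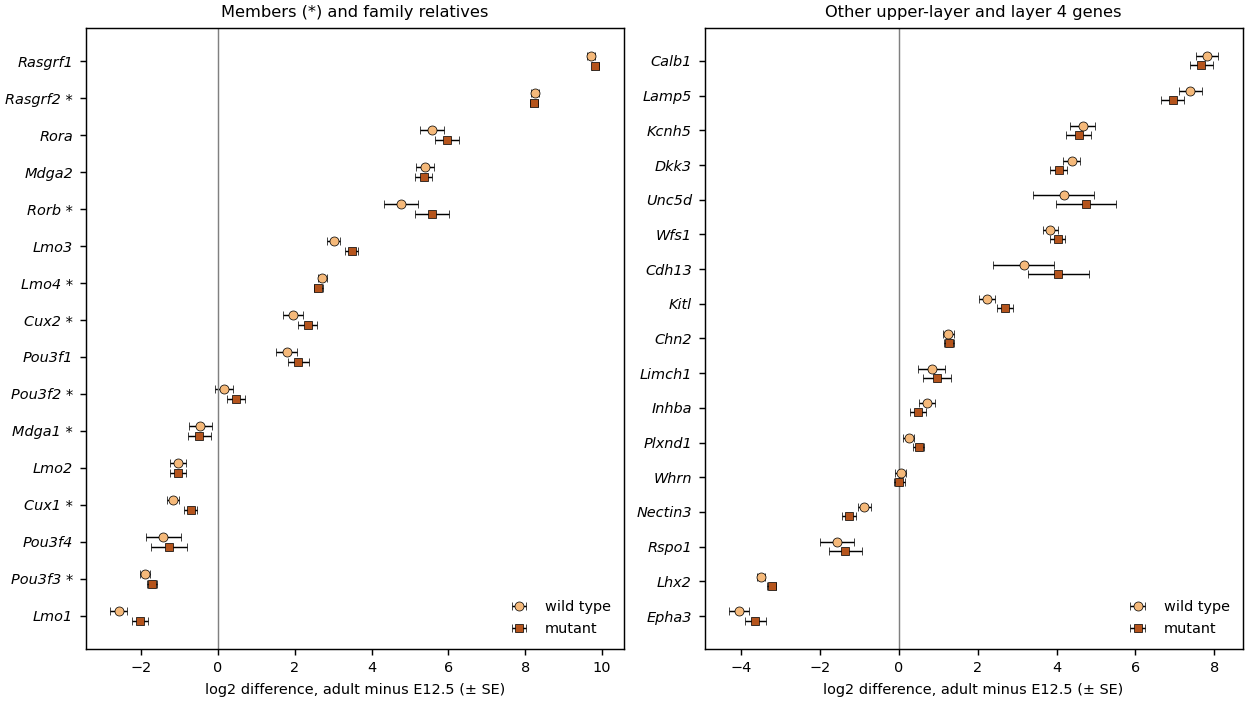
Log2 difference, adult minus E12.5, with SE, in wild types (circles) and mutants (squares), for the 8 genes (marked with an asterisk) and their relatives on the left and for 17 other upper-layer and layer 4 genes on the right. Rasgrf1 (9.72 in wild types) and Rasgrf2 (8.25) stand at the top of the left panel, but their embryonic values lie at or near the lowest array value, so their sizes and order rest on the background estimate. Calb1 (7.82) and Lamp5 (7.39) stand at the top of the right panel.

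Other genes used as markers of the upper layers and layer 4 were measured for 17 of 20. In wild types 11 were higher and 4 lower in adults, against 38.4% and 43% of all genes. The other 2 were not called, and the median was 1.25. The largest rises were those of Calb1, a calcium-binding protein, at 7.82, and Lamp5, a membrane protein of upper-layer and other neurons, at 7.39. Epha3, an ephrin receptor, fell by 4.06, and Lhx2, a LIM-homeodomain factor of cortical progenitors, fell by 3.50. None of the 17 was called between genotypes. In adults the lowest p belonged to Plxnd1, a semaphorin receptor (0.26, unadjusted p = 0.0991), and Kitl, the Kit ligand (0.27). In embryos it belonged to Lhx2 (−0.37, unadjusted p = 0.00588, limma adjusted p = 0.611) and Dkk3 (0.34).

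Partners and regulators of upper-layer identity, measured for 13 of 16, mostly fell with stage, with a median of −2.0. In adult wild types 10 were lower and 2 higher, against 43% and 38.4% of all genes. Dmrta2, a factor of cortical patterning, fell by 6.72, and Sox11, of newborn neurons, by 5.48. The adult wild-type mean of Dmrta2 was 3.85, so it passed the filter through embryonic arrays only. Ldb2, which binds LIM domains, rose by 2.23, and Zbtb18, a transcriptional repressor active in the neuronal lineage, by 0.59 (limma adjusted p = 0.0474). Between genotypes 0 of 13 were called. In adults the lowest p belonged to Ski, a transcriptional corepressor (0.24, unadjusted p = 0.0482), and Ldb1, a partner of Lmo4 (0.31). In embryos it belonged to Ldb2 (−0.32) and Dmrta2 (−0.09).

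The deep-layer genes are the closest set for comparison, and they too were split by stage and not called by genotype. Of 12 measured (of 16), 4 were higher in adult wild types, 4 lower and 4 not called, with a median of 0.12. Of all genes, 38.4% were called higher and 43% lower. Cplx3, a complexin of the deepest cortical neurons, rose by 3.72, from an embryonic mean of 2.20 near the lowest array value. It passed the filter through adult arrays only, so the filter fixed its direction. Crym rose by 3.53. Fezf2, which specifies neurons that project below the cortex, fell by 1.89 and Nxph4 by 1.30. In adult mutants Cplx3 read −0.82 (unadjusted p = 0.00406, limma adjusted p = 0.7) and Fezf2 −0.39 (unadjusted p = 0.0404, limma adjusted p = 1). In embryonic mutants the lowest p belonged to Nxph4 (0.42) and Nr4a2 (−0.41). Whether deep-layer and upper-layer genes differed in their response was not tested.

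The progenitor genes mostly fell between the stages. All 10 intermediate progenitor genes fell with stage in wild types, with differences of −9.66 for Neurog2, which stood at 2.19 on the adult arrays, and −8.98 for Eomes. Of 12 radial glia genes 10 fell, Nes by 6.73 and Pax6 by 6.50, while Slc1a3 (2.94) and Hopx (1.19), which adult astrocytes also express, rose. Neurog2, Eomes, Nes and Pax6 were under 4 in adults and passed the filter through embryonic arrays only, so it fixed their direction. The same holds for Neurog1, Mfap4 and Neurod4, with adult wild-type means of 2.19, 2.53 and 2.22. Of all genes, 43% were called lower in adult wild types. Between genotypes 0 of 10 and 0 of 12 were called at each stage. Of the radial glia genes, the lowest p belonged to Sox2 (0.26, unadjusted p = 0.0616) and Notch1 (0.14) in adults and to Notch1 (0.32, unadjusted p = 0.0693) and Hopx (0.32) in embryos. Of the intermediate progenitor genes, it belonged in adults to Btg2 (0.52) and Insm1 (−0.13), and in embryos to Neurod4 (0.66, unadjusted p = 0.0116, limma adjusted p = 0.737) and Insm1 (−0.37, unadjusted p = 0.0217).

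The genes whose profile over the 12 arrays was most like that of each member were found by the root-mean-square difference after centring each profile on its mean. Rorb lay nearest to Anks1b (0.219 log2 units) and Mapk10 (0.309), where the median over all genes was 2.69. Rasgrf2 lay nearest to Unc80 (0.137) and Kcnc2 (0.149), against a median of 4.16. Cux2 lay nearest to Micu3 (0.179) and Asb13 (0.184), and Lmo4 to Rnf14 (0.120) and Saraf (0.121). Pou3f3 lay nearest to Clp1 (0.0728) and Phip (0.0780), and Cux1 to Prpf4b (0.117) and Lamp2 (0.129). For Pou3f2 these were Gsto1 (0.168) and Ube2q2 (0.180), and for Mdga1 Dok4 (0.166) and Ogg1 (0.168), against medians of 0.726 and 0.707. The profiles are set mainly by the stage difference, share the same 12 arrays and are a description with no test.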

How the data were processed

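RNA from 12 samples was hybridised to Affymetrix arrays after labelling in 2 cycles of cDNA synthesis, per the labels' protocols. The deposited values are log2 expression values per probe set, made by the authors with GCRMA, per the submitters' processing notes (version not given in the sources used here). GCRMA estimates background from probe sequence and normalizes arrays together, so low values depend on that estimate. The number of arrays limits the precision. Values were used as deposited. No pair of arrays held identical values.

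Gene symbols came from the annotation of the platform and matched RefSeq for 34741 probe sets. Of 45101, 34945 had 1 symbol, 932 several, 9160 none, and 64 were controls. limma 3.58.1 in R 4.3.3 (lmFit and eBayes, 4 group means, 8 residual degrees of freedom) was fitted over all genes and adjusted by Benjamini-Hochberg. The code was tested on simulated data.

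The 8 genes and the lists were chosen with earlier results of these data known. Named genes were the 8 members, from each other list described the called genes or else the 2 of lowest p per mutant contrast, and the 2 largest stage differences each way where called, except that all family relatives are given and Kat6b served as the check. Slc1a3, Hopx, Nes and Pax6, the 2 per direction of the radial glia list, follow the same rule. Neurog1, Mfap4 and Neurod4 are named only because of the filter. The most alike genes were the 2 nearest profiles. Markers of neighbouring tissue and of the labelled tissues were named after their values were seen.

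Replicate numbers follow the accession order. The pairs come from the labels (ages for adults, parents for embryos). Deviations from the group means correlated at 0.189, −0.0138 and 0.268 within the adult age pairs, and at −0.303 to 0.226 between adults of different pairs. For embryos the correlations were 0.506 and 0.136 to 0.253 in the same cross and −0.363 to −0.225 between crosses. The pairs entered an alternative as a block. Other alternatives were the filter, the probe set per gene, scaling, the arrays fitted, the variance model, weighting of arrays, and leaving out single arrays or the first cross.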

Additional observations from a re-analysis of the deposited data

How the results depend on the processing

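Under every alternative run, 0 members were called between genotypes or in the difference between stages, 6 were called between stages in wild types, and 6 or 7 in mutants. With the age pair or cross as a replicate block no member's call changed (Cux2 −0.43 and Rorb −0.66 in embryos). Some small differences turned sign. Averaging all probe sets of a gene gave adult effects of 0.13 for Cux2 and −0.23 for Rorb, an embryonic effect of 0.061 for Cux1, and 0.087 for Rasgrf2 in the difference between stages. Array weights gave Mdga1 0.0036 in adults, −0.074 in embryos and 0.077 for the difference. Dropping both embryos of the first cross, which was decided after the data were seen, gave Mdga1 −0.028 in embryos and 0.0048 for the difference, and Rasgrf2 0.053 for the difference. Leaving out each array gave adult effects from −0.31 to 0.13 for Cux2, −0.035 to 0.29 for Rorb and −0.0084 to 0.17 for Pou3f3. Embryonic effects ran from −0.25 to 0.40 for Mdga1 and −0.016 to 0.14 for Rasgrf2, differences between stages from −0.079 to 0.079 for Rasgrf2 and −0.43 to 0.22 for Mdga1, and the stage difference of Pou3f2 in wild types from −0.13 to 0.34. The stage difference of Pou3f2 in mutants was called under 5 alternatives (0.68 with all its probe sets averaged) and that of Mdga1 under 1. The cause was not tested. Over all genes, the count called in embryos (4) was 42 with array weights, 18 without the first cross, 8 with the filter at 6, 1 with the block and 0 with 6 arrays in the fit. The count in adults (6) was 1 with the filter at 6, 3 with the block, 3 with a trended and robust variance model, 2 without the first cross and 0 with 6 arrays. The difference between stages (0) had 7 calls with array weights, and 1 with no filter and 1 with probe sets averaged. Leaving out each array gave 3 to 13 in embryos and 0 to 6 in adults. Pou3f2 and Mdga1 are not measured with the filter at 6. Values near 2.19 or repeated over arrays limit Mdga1 and the embryonic values of Rasgrf2 and Rorb.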
